A study of Mus musculus with 3 samples.

Results

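The T-box genes *Tbx15*, *Tbx18*, *Tbx2*, *Tbx3* and *Tbx1* were followed across the cell types of the mouse soft palate, the posterior muscular part of the palate, at E14.5. The 5 members were chosen by gene symbol from the 32285 genes of the deposited count tables, and all 5 were present. Single-cell libraries had been made from 2 control soft palates (control 1 and control 2) and from 1 soft palate labelled Osr2-Cre;Alk5fl/fl, called the mutant here, all on the C57BL/6 strain. *Alk5* is another name of *Tgfbr1*, which encodes the type I TGF-β receptor, and by the study's methods the controls carried floxed *Tgfbr1* alleles without Cre. *Osr2*-Cre is active in the palatal mesenchyme and not in every cell type of the tissue. Embryos were used regardless of sex, and the sources used here do not say whether a library holds 1 embryo or several.

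T-box proteins bind DNA through a shared domain and act as transcription factors in the patterning of limbs, heart and head. *Tbx15* and *Tbx18* are close paralogues within the *Tbx1* subfamily and act in mesenchyme of the skeleton, body wall and vessel walls. *Tbx2* and *Tbx3* form another closely related pair and act mainly as repressors, with the growth arrest gene *Cdkn1a* among their known targets. *Tbx1* works in the pharyngeal apparatus, where it is needed for pharyngeal arch patterning and for the muscles of the head, and *Tbx22*, measured beside the members, is a known cleft palate gene.

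In GRCm38 coordinates the members lie on different chromosomes and each is annotated as protein-coding. *Tbx15* spans positions 99240381 to 99354259 of chromosome 3 on the plus strand (ENSMUSG00000027868), and *Tbx18* spans 87702800 to 87731260 of chromosome 9 on the minus strand (ENSMUSG00000032419). *Tbx2* lies on the plus strand of chromosome 11 from 85832551 to 85841948 (ENSMUSG00000000093), and *Tbx3* on the plus strand of chromosome 5 from 119670669 to 119684724 (ENSMUSG00000018604). *Tbx1* lies on the minus strand of chromosome 16 from 18580979 to 18590671 (ENSMUSG00000009097). Tags at the 3′ end of the whole gene were counted, so isoforms cannot be told apart.

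The libraries held 2816 (control 1), 4067 (control 2) and 8690 (mutant) barcodes, of which 2057, 3691 and 7511 were kept as cells with median depths of 8167, 5223 and 5050 UMIs. Cells were assigned to types by counting marker genes with at least 1 UMI, and none of the T-box genes was a gate marker. The palatal mesenchyme gate held 1228, 1986 and 3530 cells. Of these 223, 185 and 224 were counted as perimysial, the cells that surround the developing muscle. They passed the perimysial gate (at least 2 of *Hic1*, *Ebf2*, *Agtr2*, *Foxd1* and *Meox1*) and no other subtype gate. A further 239, 308 and 561 mesenchymal cells passed several subtype gates, which can include the perimysial one, and were counted in no subtype. The perimysial share of the mesenchyme differed between the controls, at 18.2% and 9.32%, and was 6.35% in the mutant. *Tgfbr1* stood at 56.4, 62.8 and 48.6 UMIs per 1000000 UMIs (CPM) in the mesenchyme, but tags at the end of the transcript do not read the deleted part, so this level does not check the recombination. Between 18 and 49 cell barcodes were shared by any pair of libraries, at most 1.21% of the barcodes of either. As only 1 mutant library exists, the genotypes were not tested against each other. Each genotype value is therefore a log2 ratio, in which the average of both controls' log2 CPM was subtracted from that of the mutant, set beside the gap between the controls on the same scale. A gene was counted as past the fold where the mutant lay outside both controls on 1 side by a log2 ratio of at least 1 in size that also exceeded the gap. The intervals given are exact 95% Poisson intervals of the summed UMIs (Clopper-Pearson for shares of cells) and cover counting error only.

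In control 1, control 2 and the mutant the mesenchyme held 61.4%, 57.3% and 52.8% of all *Tbx15* UMIs. It also held 54.8%, 50.3% and 48.2% of all UMIs of the cells. Among the named types *Tbx15* was highest in the perimysial cells. In perimysial cells it was 41.8 CPM in control 1 (80 UMIs, interval 33.2 to 52.1), 33.6 CPM in control 2 (42 UMIs, 24.2 to 45.4) and 10.1 CPM in the mutant (15 UMIs, 5.63 to 16.6). In the whole mesenchyme it was 21.3 CPM (245 UMIs, 18.7 to 24.1), 15.7 CPM (201 UMIs, 13.6 to 18.1) and 5.35 CPM (140 UMIs, 4.5 to 6.31). Both controls were above the mutant in each of these populations, with intervals that did not overlap that of the mutant. In midline cells, the mesenchyme marked by *Lsp1*, *Wnt16* and *Sostdc1*, *Tbx15* was 11.3, 9.36 and 5.93 CPM, the libraries being given here and below in the order control 1, control 2, mutant. Osteogenic cells, the bone-forming branch of the mesenchyme, gave 6.68, 0 and 1.85 CPM from 8, 0 and 6 UMIs. The 0 in control 2 allows a level of up to 8.54 CPM.

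In endothelial cells *Tbx15* was represented by 0, 0 and 1 UMIs and in macrophages by 2, 0 and 0 UMIs. By median over the libraries the order ran from perimysial through cartilage, midline and epithelial cells down to the endothelial, macrophage and neuronal cells. The ranges over the 3 libraries of every pair of neighbours in this order overlapped. These ranges take in the mutant as well as the controls and do not compare the types within a library. Within each library perimysial cells stood above cartilage, at 41.8, 33.6 and 10.1 CPM against 21.8, 15.7 and 6.92 CPM. Cartilage rested on 11 cells in each control and on 3, 2 and 16 *Tbx15* UMIs.

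**Figure D1:**
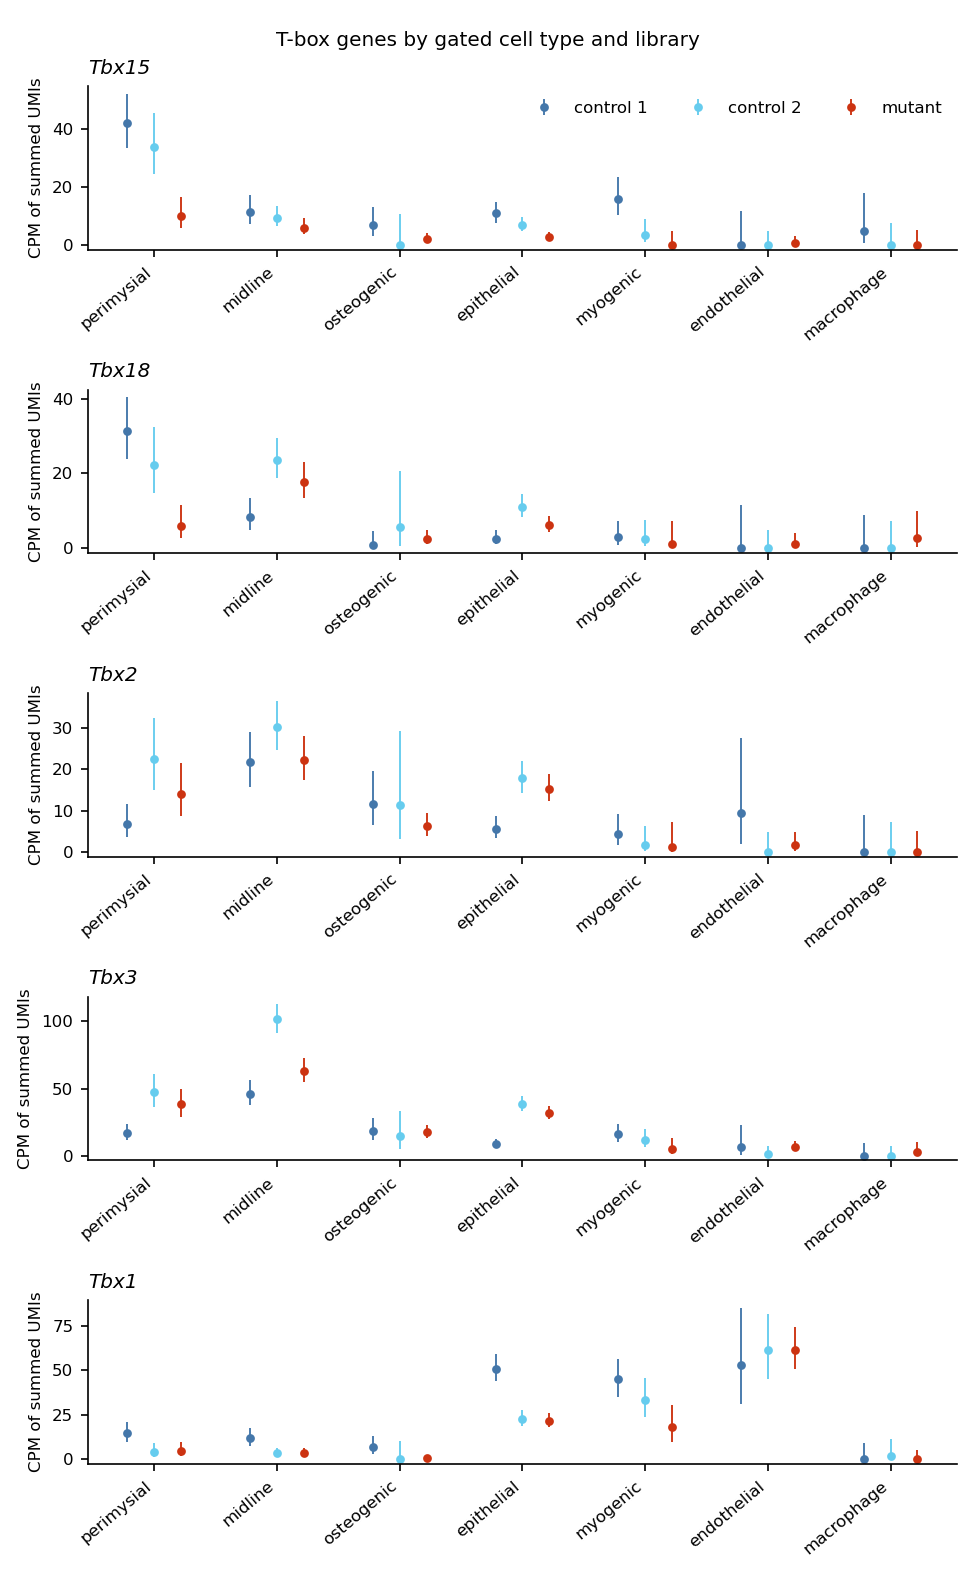
CPM of the 5 T-box genes (1 panel each, linear axes that include 0) in 7 gated cell types, with 1 point for each library and bars for the exact 95% Poisson interval. Among these types *Tbx15* stands highest in perimysial cells, *Tbx2* and *Tbx3* stand highest in midline cells, and *Tbx18* is found in both, while *Tbx1* stands above its mesenchymal levels in endothelial, myogenic and epithelial cells.

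The perimysial cells were compared with the rest of the mesenchyme of the same library. That rest holds the cells passing several subtype gates, some of which may have passed the perimysial gate. The comparison used edgeR's quasi-likelihood test on summed UMIs, with the library as a block and Benjamini-Hochberg adjustment over all genes tested. These p-values measure only the spread between 3 libraries, which may be technical. *Tbx15* was 2.28-fold higher in perimysial cells (log2 fold 1.19, SE 0.17, adjusted p = 5.17e-05) and was higher there in 3 of 3 libraries. Of the 5 members 1 was called higher and 1, *Tbx3*, lower, in a contrast that called 6.69% of 12368 genes (828 genes in all, 551 without control 1 and 473 without the mutant). The *Tbx15* call was kept when any 1 library was left out. Without the library block it was lost at a like size (log2 fold 1.25, adjusted p = 0.883), in a fit by edgeR that called 0 genes (661 at an unadjusted p under 0.05, and 297 genes called by DESeq2 with the block). The study used *Tbx15* as a known perimysial marker, taken from earlier soft palate data, to name the perimysial cells of these libraries, so its direction in the contrast was known beforehand.

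In midline cells against the rest of the mesenchyme *Tbx15* was lower (log2 fold -0.69, SE 0.20, adjusted p = 0.0294 by edgeR). This contrast called 7.15% of 12486 genes, 893 in all, but 200 without control 2 and 497 without the mutant. The midline call of *Tbx15* was lost without control 1 (log2 fold -0.51, adjusted p = 0.203), without control 2 (-0.55, adjusted p = 0.498) and with DESeq2 (adjusted p = 0.718), among other settings. When the gates were read on cells thinned to 2000 UMIs, the log2 fold was -0.02 (adjusted p = 0.994).

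In the mutant mesenchyme *Tbx15* was 3.43-fold lower than in the controls, a log2 ratio of -1.78 beside a gap of 0.44 between the controls (-1.56 without control 1 and -1.99 without control 2). Within perimysial cells it was 3.72-fold lower, a log2 ratio of -1.90 beside a gap of 0.32. Both values were past the fold, as were 1.47% of 9043 genes on the lower side in the mesenchyme (133 genes, and 214 without control 2) and 3.67% of 9407 genes in perimysial cells (345 genes, and 554 without control 1). In midline cells the log2 ratio was -0.79 beside a gap of 0.27, which was not past the fold, and 2.24% of 8991 genes were lower past it. *Tbx15* is one of the genes the study singled out as affected in this mutant, so its place past the fold was known before these values were computed.

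Of the 4 members measured in the mesenchyme (at least 10 CPM in 1 library and 20 UMIs over the controls) 1, *Tbx15*, was lower past the fold and none was higher. Over all genes 1.47% were lower and 0.829% higher past the fold there. The median log2 ratio of those members was -0.40, against -0.07 over all genes. Of the 5 members measured in perimysial cells 2, *Tbx15* and *Tbx18*, were lower past the fold, as were 3.67% of all genes (median -0.70, all genes -0.08). Of the 5 in midline cells none was, beside 2.24% of all genes (median -0.20, all genes -0.06).

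The lower level of *Tbx15* in the mutant was also found in mesenchymal cells not counted as perimysial. Cells passing several subtype gates can have passed the perimysial gate too, so they are not a set free of perimysial cells. In cells passing several subtype gates it was 27.0, 23.6 and 6.94 CPM, a log2 ratio of -1.86 beside a gap of 0.20, and 1.6% of 9348 genes were lower past the fold there. In mesenchymal cells passing no subtype gate it was 15.7, 12.4 and 4.35 CPM, a log2 ratio of -1.68 beside a gap of 0.35. The perimysial share of the mesenchyme also differed between the libraries, as given above. With the subtype shares of each library set to their mean over the libraries, the mesenchymal level was 19.9, 15.9 and 5.73 CPM and the log2 ratio -1.63.

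**Figure D2:**
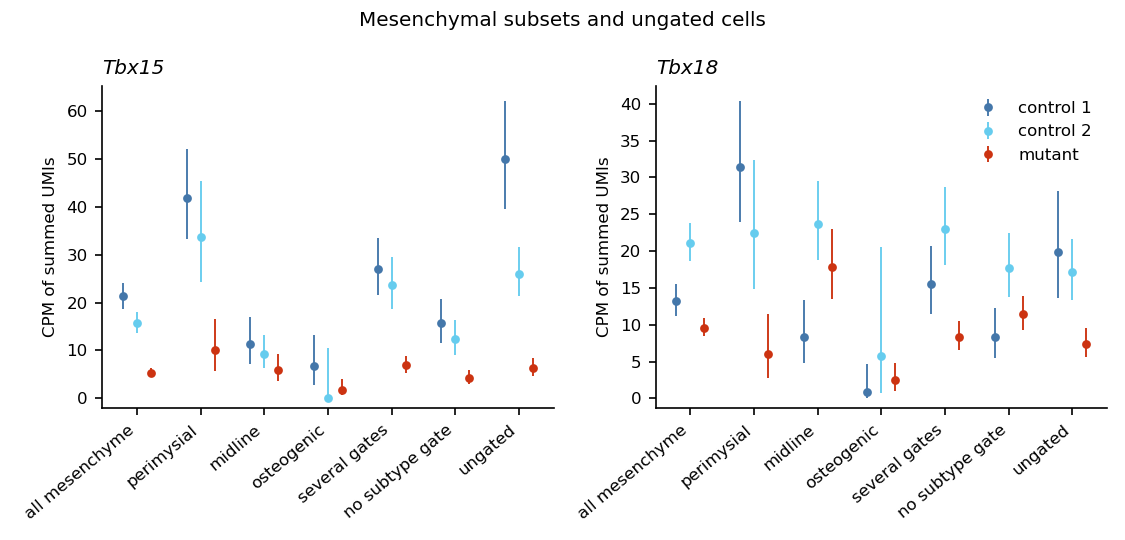
CPM of *Tbx15* and *Tbx18* (1 panel each) in the whole mesenchyme, its gated subsets and the ungated cells, with 1 point for each library and bars for the exact 95% Poisson interval. The mutant point of *Tbx15* lies below both controls in the perimysial, midline, several-gate, no-gate and ungated cells, and that of *Tbx18* lies below both in perimysial, several-gate and ungated cells but between them in midline cells.

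Cells that passed no gate held much of the *Tbx15* signal. These 263, 1014 and 2242 ungated cells gave 49.8 CPM (80 UMIs), 26.0 CPM (105 UMIs) and 6.40 CPM (52 UMIs), a log2 ratio of -2.49 beside a gap of 0.94, in a population where 2.3% of 9135 genes were lower past the fold. They held 20.1%, 29.9% and 19.6% of all *Tbx15* UMIs against 7.65%, 15.9% and 15.0% of all UMIs of the cells. Their median depths were 6099, 3641.5 and 3164.5 UMIs, below the 8070.5, 5405.5 and 5816.5 UMIs of the gated mesenchyme, and their summed mesenchymal markers reached 290 to 347 CPM against 942 to 1039 CPM in that gate. Counting the ungated cells as mesenchyme, an alternative chosen after seeing the data, gave 24.8, 18.2 and 5.60 CPM and a log2 ratio of -1.93.

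The share of mesenchymal cells with a *Tbx15* UMI, after thinning each cell to 2000 UMIs, was 3.27% of 1225 cells in control 1, 2.89% of 1903 in control 2 and 0.934% of 3425 in the mutant. Unthinned, the shares were 11.3%, 7.60% and 3.51%. The thinned mutant share was below both controls, as the CPM was. In perimysial cells thinned to 2000 UMIs the shares were 4.93% (11 of 223), 6.18% (11 of 178) and 3.6% (8 of 222), with overlapping intervals, so a difference was not detectable at that thinning. Thinned to 4000 UMIs, which left out 4, 26 and 54 cells, they were 11.9% (26 of 219), 11.9% (19 of 159) and 2.35% (4 of 170). The exact 95% interval of the mutant, 0.645% to 5.91%, then lay below those of the controls, 7.90% to 16.9% and 7.35% to 18.0%. Unthinned perimysial shares were 17.5%, 17.3% and 6.25%. No macrophage thinned to 2000 UMIs held a *Tbx15* UMI, among 34, 66 and 123 cells, which allows shares of up to 8.82%, 4.55% and 2.44%, and at 4000 UMIs 1 of 31, 0 of 49 and 0 of 95 did.

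Epithelial and myogenic cells held small amounts of *Tbx15*. Epithelial cells gave 10.8, 6.74 and 2.57 CPM (37, 33 and 15 UMIs), a log2 ratio of -1.73 beside a gap of 0.68, where 2.14% of 9591 genes were lower past the fold. However, 71 of 203, 190 of 328 and 224 of 436 epithelial cells carried at least 2 of the mesenchymal gate markers. In the epithelial cells without those markers 3, 0 and 0 *Tbx15* UMIs remained. Myogenic cells, the muscle precursors and myocytes, gave 15.8, 3.51 and 0 CPM from 25, 4 and 0 UMIs, and the 0 in the mutant allows up to 3.88 CPM. Without the myogenic cells carrying at least 2 mesenchymal markers, 13, 4 and 0 UMIs remained.

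*Tbx18*, the close paralogue of *Tbx15*, had 69.1%, 66.7% and 57.8% of its UMIs in the mesenchyme, beside 54.8%, 50.3% and 48.2% of all UMIs. In the whole mesenchyme it did not follow *Tbx15* across the libraries. In perimysial and in ungated cells both genes were highest in control 1 and lowest in the mutant. In the mesenchyme *Tbx18* was 13.2 CPM (152 UMIs) in control 1, 21.1 CPM (269 UMIs) in control 2 and 9.62 CPM (252 UMIs) in the mutant. Control 2 was the highest library for *Tbx18* there, whereas control 1 was the highest for *Tbx15*. The log2 ratio of -0.79 lay close to the gap of 0.67 and was not past the fold.

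In perimysial cells *Tbx18* was 31.4 CPM (60 UMIs, 23.9 to 40.4), 22.4 CPM (28 UMIs, 14.9 to 32.4) and 6.04 CPM (9 UMIs, 2.76 to 11.5). Both controls were above the mutant, and the level was 4.39-fold lower there (log2 ratio -2.13, gap 0.49), which was past the fold. Reading the gates on thinned cells left 4, 2 and 7 UMIs and a log2 ratio of 0.13. In midline cells the pattern was another: *Tbx18* was 8.36, 23.7 and 17.8 CPM, with the mutant between the controls. Cells passing several gates gave 15.6, 23.0 and 8.33 CPM (log2 ratio -1.18), ungated cells 19.9, 17.1 and 7.38 CPM (log2 ratio -1.32), and both were past the fold. Cells passing no subtype gate gave 8.34, 17.8 and 11.4 CPM.

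Neither contrast within the mesenchyme called *Tbx18*. Against the rest of the mesenchyme its log2 fold was 0.59 in perimysial cells (SE 0.27, adjusted p = 0.257 by edgeR) and 0.38 in midline cells (SE 0.19, adjusted p = 0.279). Both depended on single libraries: without control 2 the perimysial value was 0.87 (adjusted p = 0.00964) and without control 1 it was -0.20, while without control 1 the midline value was 0.64 (adjusted p = 0.00490). Epithelial cells held 9, 54 and 37 *Tbx18* UMIs, of which 2, 2 and 0 remained in those without 2 mesenchymal markers. Endothelial cells held 0, 0 and 2 UMIs. Mural cells, the pericytes and smooth muscle cells of vessels, held 5, 0 and 5 UMIs in 14, 5 and 40 cells. In the order of *Tbx18* levels the ranges over the libraries, mutant included, overlapped for every neighbouring pair of types.

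**Figure D3:**
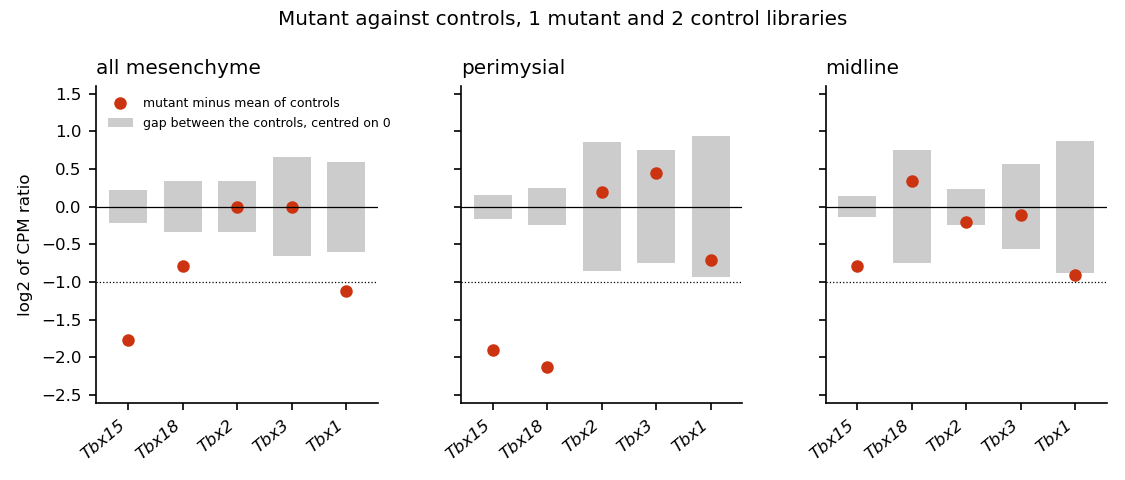
Log2 ratio of the mutant to the mean of the controls for the 5 T-box genes in mesenchyme, perimysial and midline cells (red points), with grey bars for the gap between the controls centred on 0 and a dotted line at -1. *Tbx15* lies below the line in mesenchyme and perimysial cells and *Tbx18* in perimysial cells, while *Tbx2* and *Tbx3* lie within the gap in the mesenchyme. *Tbx1* also lies below the line in the mesenchyme, but by less than the full gap between its controls.

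The repressor pair *Tbx2* and *Tbx3* had more of their signal in midline than in perimysial cells, and in the mesenchyme neither was lower in the mutant than in both controls. In the mesenchyme *Tbx3* was 30.1 CPM (346 UMIs) in control 1, 74.8 CPM (955 UMIs) in control 2 and 47.3 CPM (1240 UMIs) in the mutant. *Tbx2* was 14.7, 23.7 and 18.6 CPM there, from 169, 302 and 488 UMIs. For both genes the mutant lay between the controls, whose log2 gap was 1.31 for *Tbx3* and 0.69 for *Tbx2*. In midline cells *Tbx3* reached 46.2, 101.5 and 63.4 CPM and *Tbx2* 21.6, 30.1 and 22.2 CPM. In perimysial cells *Tbx3* was 16.7, 47.2 and 38.3 CPM and *Tbx2* 6.80, 22.4 and 14.1 CPM. Within each library both genes were higher in midline than in perimysial cells.

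Against the rest of the mesenchyme *Tbx3* was 1.59-fold higher in midline cells (log2 fold 0.67, SE 0.09, adjusted p = 1.31e-05 by edgeR) and lower in perimysial cells (log2 fold -0.67, SE 0.13, adjusted p = 0.00163). *Tbx2* was higher in midline cells (log2 fold 0.51, SE 0.13, adjusted p = 0.0145), and its perimysial log2 fold was -0.55 (SE 0.21, adjusted p = 0.137). Of the 5 members 2, *Tbx2* and *Tbx3*, were thus called higher in midline cells and 1, *Tbx15*, lower. Without control 2 the midline values were 0.63 for *Tbx3* (adjusted p = 0.0526) and 0.47 for *Tbx2* (adjusted p = 0.310), and the perimysial value of *Tbx2* was -0.82 (adjusted p = 0.0293). The midline calls of both were also lost with gates read on thinned cells (adjusted p = 0.0644 and 0.978). The perimysial call of *Tbx3* was kept without any 1 library but was lost with 3 markers required for mesenchyme (adjusted p = 0.0514) and with gates read on thinned cells (adjusted p = 0.214). Without the library block the midline calls of both genes and the perimysial call of *Tbx3* were lost. Those edgeR fits called 0 genes in perimysial cells and 2 in midline cells, 0 of them higher.

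Outside the mesenchyme *Tbx2* and *Tbx3* were found in neuronal cells, at 14.4, 38.7 and 37.5 CPM and at 14.4, 51.6 and 55.9 CPM, where the controls held 14 cells each. No macrophage sum held a *Tbx2* UMI, and *Tbx3* was represented there by 0, 0 and 2 UMIs. Tendon-like cells gave *Tbx3* levels of 37.8, 72.3 and 69.3 CPM from 5, 24 and 40 UMIs. In the order of *Tbx2* levels the ranges of cartilage and tendon-like cells did not overlap, nor did those of osteogenic and myogenic cells. Cartilage held 3, 3 and 49 *Tbx2* UMIs and tendon-like cells 0, 6 and 10. Osteogenic cells held 14, 4 and 20 and myogenic cells 7, 2 and 1. Within each library the Poisson intervals of both pairs overlapped. Whether these separations exceed counting error was not tested. In the order of *Tbx3* levels the ranges of all neighbours overlapped. In epithelial cells *Tbx3* had 30, 189 and 185 UMIs and *Tbx2* 19, 87 and 89 UMIs. Of these 7, 14 and 6 of *Tbx3* and 4, 6 and 1 of *Tbx2* remained in the epithelial cells without 2 mesenchymal markers. *Tbx3* in myogenic cells was 15.8, 11.4 and 5.18 CPM (25, 13 and 4 UMIs), a log2 ratio of -1.37 beside a gap of 0.47.

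*Tbx1* had another distribution, high in endothelial, myogenic and epithelial cells and low in the mesenchyme. In endothelial cells *Tbx1* was 53.2 CPM (17 UMIs), 61.5 CPM (47 UMIs) and 61.8 CPM (110 UMIs), with little spread between the libraries. In myogenic cells it was 44.9 CPM (71 UMIs), 33.3 CPM (38 UMIs) and 18.1 CPM (14 UMIs). In epithelial cells it was 51.0, 22.9 and 21.6 CPM from 175, 112 and 126 UMIs. The endothelial range lay above the myogenic range, and the epithelial range above the perimysial range of 4.00 to 14.6 CPM, while the myogenic and epithelial ranges overlapped. In the mesenchyme *Tbx1* was 9.13, 4.00 and 2.79 CPM, and the macrophages held 0, 1 and 0 UMIs.

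Against the mesenchyme of the same library *Tbx1* was 14.0-fold higher in endothelial cells (log2 fold 3.81, SE 0.28, adjusted p = 1.21e-13), 8.20-fold higher in myogenic cells (log2 fold 3.04, SE 0.27, adjusted p = 9.89e-08) and 5.95-fold higher in epithelial cells (log2 fold 2.57, SE 0.15, adjusted p = 1.79e-05), all by edgeR. It was higher in 3 of 3 libraries in each of these types. These lineage contrasts called 41.4% of 12691 genes in endothelial, 39.4% of 12472 in myogenic and 34.6% of 13462 in epithelial cells, the shares to read these calls against. The *Tbx1* calls held when any 1 library was left out. The number of genes called did not hold, at 4661 in epithelial cells and 1772 without control 2, and at 5249 in endothelial cells with 3408 without control 2 and 3272 without the mutant.

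In the mutant *Tbx1* in myogenic cells was lower than in both controls (log2 ratio -1.09, gap 0.43), a value past the fold, as were 7.91% of 8108 genes in these 99, 119 and 101 cells. Without the myogenic cells carrying mesenchymal markers the levels were 44.8, 35.9 and 20.1 CPM. The intervals of control 2 (23.6 to 45.7 CPM) and of the mutant (9.91 to 30.4 CPM) overlapped. In epithelial cells the log2 ratio was -0.66 and the controls differed by more, with a gap of 1.16. Without the epithelial cells carrying mesenchymal markers the mutant, at 40.3 CPM, lay between the controls at 60.4 and 26.2 CPM. In the mesenchyme the log2 ratio of -1.12 did not exceed the gap of 1.19.

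The other members were called lower than in mesenchyme in epithelial cells. Of the 5 members 1 was higher and 4 were lower in epithelial cells (34.6% of all genes called). In myogenic cells (39.4% called) *Tbx1* was higher and *Tbx3* was lower. *Tbx18* (5, 3 and 1 myogenic UMIs) and *Tbx2* (7, 2 and 1) entered the myogenic test through the mesenchyme. Lower was the only call open to these genes, so they are not counted in myogenic cells. In endothelial cells (41.4% called) *Tbx1* was higher. The 4 others had few endothelial UMIs and entered that test through the mesenchyme. Lower was the only call open to them, so they are not counted. In myogenic cells the log2 fold was -1.60 for *Tbx3* (adjusted p = 0.000179), -2.14 for *Tbx18* (adjusted p = 0.000437) and -2.30 for *Tbx2* (adjusted p = 0.000198). *Tbx15* in myogenic cells was not called by edgeR (log2 fold -0.72, SE 0.38, adjusted p = 0.145). It was called without control 1 (-2.05, adjusted p = 0.0100) and without the cells carrying mesenchymal markers (-1.08, adjusted p = 0.0278). The value without control 1 rests on 4 and 0 myogenic UMIs and depends on the prior count. Leaving out cells by mesenchymal markers by itself favours a lower value of a mesenchymal gene.

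In epithelial cells the log2 fold ran from -1.16 for *Tbx15* (adjusted p = 0.00148) and -1.15 for *Tbx18* (adjusted p = 0.0113) to -1.04 for *Tbx3* (adjusted p = 0.00361) and -0.63 for *Tbx2* (adjusted p = 0.0362). Leaving out epithelial cells by mesenchymal markers by itself favours lower values of mesenchymal genes, so the larger folds of that setting are not separate support. By edgeR they were -3.06 for *Tbx3* (adjusted p = 5.29e-07) and -2.97 for *Tbx2* (adjusted p = 4.41e-05). *Tbx2*, with 4, 6 and 1 UMIs left, entered that test through the mesenchyme, as did *Tbx15* and *Tbx18*. Only a lower call was open to these genes. The folds of *Tbx15* and *Tbx18* were -4.50 and -4.04 in that setting, from 3 and 4 UMIs in all, with libraries at 0 that make them depend on the prior count. Without control 2 the calls of *Tbx18* (adjusted p = 0.0988), *Tbx3* (adjusted p = 0.0594) and *Tbx2* (adjusted p = 0.147) were lost. The endothelial folds of *Tbx15*, *Tbx18* and *Tbx2* rest on sums of 1 to 6 UMIs and are not printed, since libraries at 0 make them depend on the prior count. That of *Tbx3*, from 14 UMIs, was -3.42 (SE 0.35). All 4 were called lower there by edgeR, the only direction open to genes that entered the test through the mesenchyme. The call of *Tbx2* was lost with gates read on thinned cells (adjusted p = 0.140). In mural cells no member was called by edgeR or DESeq2, where 1.76% of 12274 genes were. Mural sums held 5 cells in control 2. The largest member value there was that of *Tbx2* (log2 fold 0.93, SE 0.41, adjusted p = 0.401), at 36.7, 80.4 and 31.0 CPM from 7, 4 and 13 UMIs. Its unadjusted p of 0.0234 was the only one under 0.05 among the members.

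**Figure D4:**
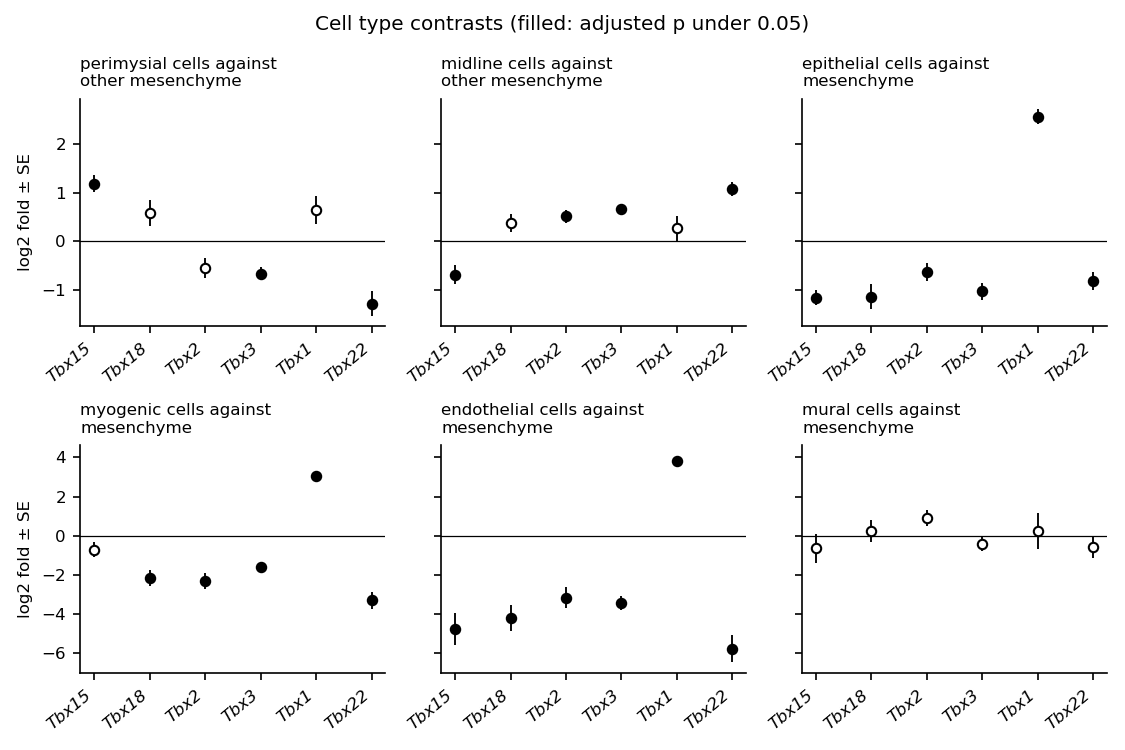
Log2 fold of the 5 members and *Tbx22* in 6 contrasts (perimysial and midline cells against the rest of the mesenchyme, and 4 lineages against the mesenchyme), with bars of 1 SE and filled points at an adjusted p under 0.05 by edgeR. The filled points above 0 are *Tbx1* in endothelial, myogenic and epithelial cells, *Tbx15* in perimysial cells and *Tbx2*, *Tbx3* and *Tbx22* in midline cells. The endothelial values of *Tbx15*, *Tbx18* and *Tbx2* rest on sums of 1 to 6 UMIs. These genes, *Tbx3* and *Tbx22* entered the endothelial test through the mesenchyme, as *Tbx18* and *Tbx2* did the myogenic test. Only a lower call was open to them there.

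Of the 12 other T-box family genes looked up, 2 were measured in the mesenchyme at 10 CPM or more, *Tbx22* and *Mga*. *Tbx22* followed the midline pattern of *Tbx2* and *Tbx3*. It was 28.5, 40.1 and 31.8 CPM in midline cells and 2.09, 20 and 6.71 CPM in perimysial cells, with the mutant between the controls in both. Against the rest of the mesenchyme *Tbx22* was higher in midline cells (log2 fold 1.07, SE 0.14, adjusted p = 5.60e-06 by edgeR) and lower in perimysial cells (log2 fold -1.29, SE 0.25, adjusted p = 0.00166). Neither call was kept without the library block. *Mga*, whose protein joins a T-box to a MAX-binding domain, was 51.0, 66.8 and 67.2 CPM in the mesenchyme, lower in midline cells (log2 fold -0.39, adjusted p = 0.00793) and not called in perimysial cells (0.07, adjusted p = 0.802). *Mga* was called lower in endothelial cells (41.4% of all genes called). *Tbx22*, 54.3-fold lower there, entered that test through the mesenchyme, so only a lower call was open to it and it is not counted. In epithelial cells (34.6% called) 1 of the 2 genes, *Tbx22*, was called lower. Its myogenic call (39.4% called), at 9.82-fold lower, is not read as a result, since so low a level can enter that test through the mesenchyme alone. Neither was past the fold in the mutant mesenchyme.

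The Groucho co-repressors *Tle1* to *Tle4*, partners of several T-box repressors, were all measured in the mesenchyme. None of the 4 was past the fold in the mutant mesenchyme (median log2 ratio -0.05). *Tle1* lay below both controls, at 64.6, 62.0 and 35.5 CPM (log2 ratio -0.83, gap 0.06). In midline cells *Tle1* was past the fold, at 77.2, 61.7 and 33.7 CPM (log2 ratio -1.03). Across the contrasts none of the 4 was called in perimysial cells, and *Tle4* alone was called in midline cells (log2 fold 0.36, adjusted p = 0.0125). In epithelial cells (34.6% of all genes called) 1 was higher and 2 were lower. In endothelial cells (41.4% called) 3 were lower and in myogenic cells (39.4% called) 2 were, *Tle1* and *Tle2* in both.

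*Cdkn1a*, which encodes the cyclin-dependent kinase inhibitor p21 and is a known target of *Tbx2* and *Tbx3* repression, was lower in midline cells than in the rest of the mesenchyme (log2 fold -1.33, SE 0.22, adjusted p = 9.27e-05 by edgeR). In midline cells of the mutant *Cdkn1a* was 4.68 CPM against 12.8 and 11.7 CPM in the controls, a log2 ratio of -1.39 that was past the fold. In the whole mesenchyme it was 27.6 CPM in the mutant against 19.5 and 18.0 CPM, which was not past the fold. *Cdkn1a* was higher in epithelial cells (log2 fold 2.99) and in myogenic cells (log2 fold 3.84) than in the mesenchyme, and was not called in perimysial cells.

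The head muscle genes linked to *Tbx1* stood high in the myogenic cells (median log2 fold 2.32, all genes -0.07). There 5 of 6 tested were called higher and none lower, in a contrast that called 39.4% of all genes. Among them was *Msc* (log2 fold 6.93), a transcription factor of the muscle precursors of the head. In epithelial cells (34.6% of all genes called) 3 of 6 were higher, with *Isl1* at 4.32, and 2 were lower. In midline cells (7.15% called) 2 of 5 were lower, *Eya1* and *Mef2c*, and in perimysial cells (6.69% called) 1, *Mef2c*. In endothelial cells (41.4% called) 1 of 5 was higher and 2 were lower. In the mutant mesenchyme 1 of 3 measured, *Eya1*, was higher past the fold, as were 0.829% of all genes. It stood at 25.7 CPM against 11.3 and 9.72 CPM. In the mutant myogenic cells *Msc* was 115 CPM against 151 and 210 CPM, and *Isl1* was 1.29 CPM (1 UMI) against 41.7 and 6.13 CPM (66 and 7 UMIs). None of the genes of these lists was called in mural cells by edgeR, and none had an unadjusted p under 0.05 there.

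Cells with a *Tbx15* UMI were then compared with the other mesenchymal cells of the same library, after thinning to 2000 UMIs. There were 40, 55 and 32 such cells beside 1185, 1848 and 3393 without. None of the 4 other members stood apart in cells with *Tbx15*. A *Tbx18* UMI was found in 1 of 40, 0 of 55 and 1 of 32 cells with *Tbx15*, against 3.12%, 4.33% and 2.42% of the others, and the 0 of 55 allows a share of up to 5.45%. For *Tbx2* the shares were 2.50% against 3.04%, 3.64% against 4.44% and 6.25% against 3.48%. For *Tbx3* they were 5% against 6.16%, 16.4% against 13.4% and 6.25% against 8.40%. For *Tbx1* they were 0% against 2.36%, 1.82% against 0.541% and 0% against 0.442%, where the 0 of 40 and 0 of 32 allow up to 7.5% and 9.38%. All intervals of the paired shares overlapped, at 2000 and at 4000 UMIs, so neither a joint nor a separate detection of these genes was detectable at these depths. Without thinning, *Tbx2* in the mutant was found in 26.6% of the cells with *Tbx15* against 10.4% of the others, whose median depths were 9671.5 and 5754.5 UMIs.

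The 8 other genes looked at were taken from the perimysial and mesenchymal genes of the study. *Creb5*, *Nr2f2*, *Dlk1*, *Smoc2*, *Fgf18* and *Ebf2* had a higher share in cells with *Tbx15* in each library, while *Hic1* and *Aldh1a2* did not. The share of all genes with that direction in each library was not computed, so the direction alone is not a result about these genes. *Creb5*, a transcription factor, had a UMI in 42.5% against 24.9% of cells in control 1, in 45.5% against 22.9% in control 2 and in 12.5% against 9.87% in the mutant. The nuclear receptor gene *Nr2f2* had one in 27.5% against 13.9%, 32.7% against 16.2% and 18.8% against 9.20%. *Dlk1*, an imprinted gene of mesenchymal progenitors, had one in 95% against 64.1%, 76.4% against 61.6% and 71.9% against 59.0%. At 2000 UMIs the intervals of the paired shares did not overlap for *Creb5* and *Nr2f2* in control 2 and for *Dlk1* in control 1, and overlapped in every other pair of the 8 genes. At 4000 UMIs, with 80, 75 and 47 cells holding *Tbx15*, these 3 pairs were again apart, as were *Creb5* in control 1 and in the mutant and *Smoc2* in the mutant. The shares of *Creb5* were then 62.5% against 35.9%, 58.7% against 33.8% and 31.9% against 16.8%, and *Smoc2* in the mutant was at 34.0% against 17.5%. At 2000 UMIs the perimysial gate gene *Hic1* was at 5% against 7.93%, 1.82% against 4.33% and 9.38% against 2.51%, and *Aldh1a2*, an enzyme of retinoic acid synthesis, at 5% against 3.88%, 3.64% against 1.84% and 3.13% against 3.48%.

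**Figure D5:**
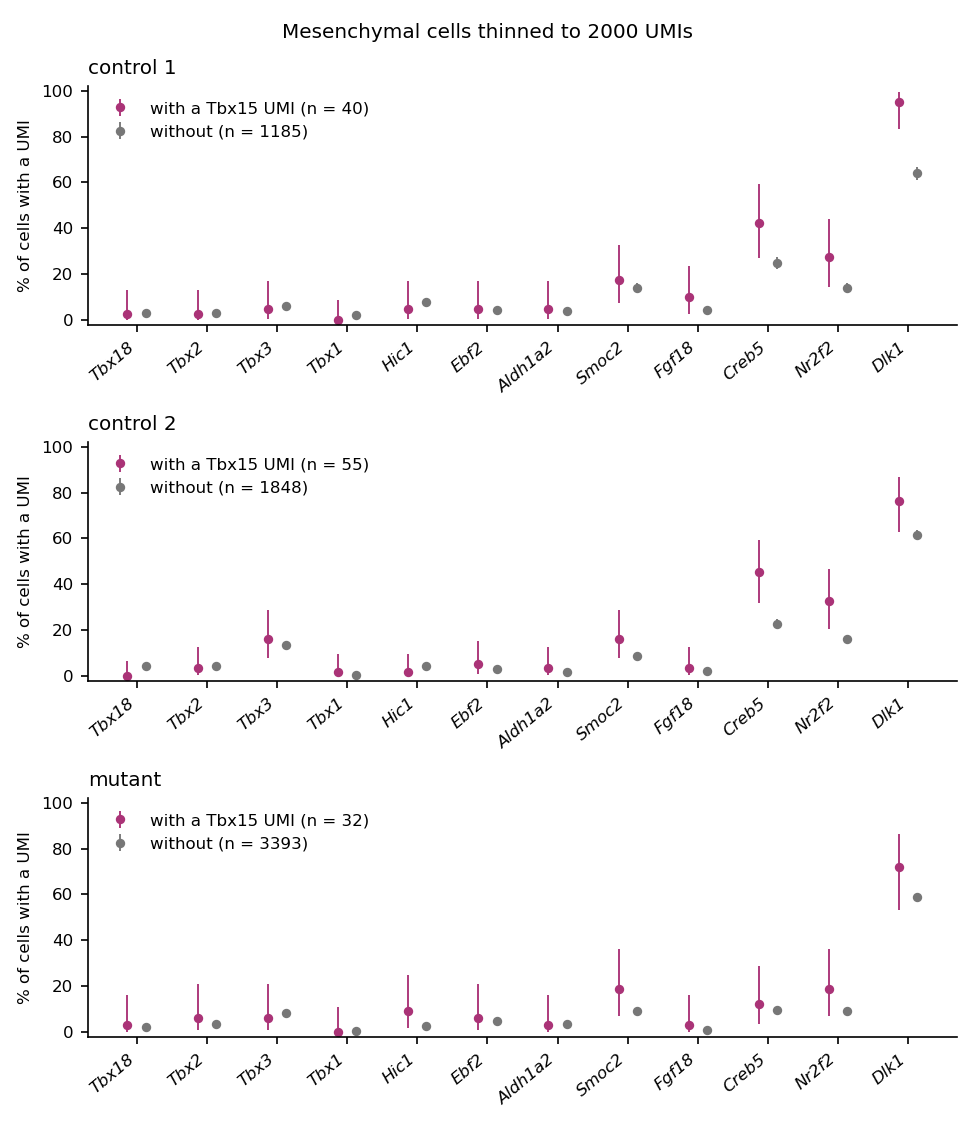
Percentage of mesenchymal cells with a UMI of each of 12 genes among cells with and without a *Tbx15* UMI (1 panel per library, cells thinned to 2000 UMIs), with exact 95% Clopper-Pearson intervals. The other T-box members sit at like shares in both sets, while the points of *Creb5*, *Nr2f2* and *Dlk1* sit higher in cells with *Tbx15*, most widely in the controls.

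The genes with the most similar distribution were named by Pearson's r of log2(CPM + 10) over 44 sums of 16 gated types and 3 libraries, among 11838 genes. The points share libraries and differ in depth, so the values describe these sums only. For *Tbx15* the 5 highest were *Prokr1* (0.77), *Wnt9a* (0.74), *Cbfa2t2* (0.74), *Mn1* (0.69) and *Islr* (0.68). For *Tbx18* they were *Plekhh2* (0.83), *Svep1* (0.77) and *Pappa* (0.76), and for *Tbx2* 2700081O15Rik (0.83), *Rnf157* (0.81) and *Lrp3* (0.79). For *Tbx3* they were *Rnf227* (0.90), *Npas3* (0.90) and *Tbx3os1* (0.89), the last a transcript named as antisense to *Tbx3* itself. For *Tbx1* they were *S100a16* (0.86), *Palmd* (0.82) and *Tspan12* (0.81). Among the members r was 0.72 between *Tbx2* and *Tbx3*, 0.60 between *Tbx18* and *Tbx3*, and 0.45 between the paralogues *Tbx15* and *Tbx18*. *Tbx1* had values from -0.31 to -0.04 with the other members.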

How the data were processed

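Soft palates of 2 control samples and 1 Osr2-Cre;Alk5fl/fl sample at E14.5 were profiled with the 10x Genomics 3′ v2 kit and sequenced on a NovaSeq. The authors deposited raw UMI counts for each library, made with Cell Ranger 4.0.0 per the file headers and the protocol (3.1.0 in the submitters' processing notes) on mm10, the UCSC name of GRCm38. The authors' merging of the controls is not part of the deposited counts. Coordinates came from the GENCODE annotation of GRCm38.

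A barcode counted as a cell with 500 genes or more and a mitochondrial share of up to 10%. Scrublet (scanpy 1.11.5) at its own threshold marked 1, 0 and 0 barcodes, so the highest scores were left out at a preset 0.8% per 1000 barcodes (60, 130 and 600 barcodes). Cells were gated first as erythroid (at least 20% of UMIs) or neutrophil (at least 1%), then by at least 3 markers of 1 lineage, and otherwise as mesenchyme by at least 2 of *Prrx1*, *Twist1*, *Twist2*, *Pdgfra*, *Msx1* and *Runx2*. Subtypes of the mesenchyme needed at least 2 of their own markers. A mesenchymal cell passing several subtype gates was put in none of them and stayed in the mesenchyme. Cells of more than 1 lineage were left out, as were cells of no gate, except where named. Raw UMIs were summed for each type and library and expressed as CPM. A sum of 0 was set to 3 UMIs before logs, and 3 UMIs is also the limit given for a 0.

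Each type was compared with the mesenchyme by the quasi-likelihood test of edgeR 4.0.16 (R 4.3.3) with TMM factors, filterByExpr and Benjamini-Hochberg adjustment, leaving out the gate markers. The library was a block, since each library gives both types, which leaves 2 residual degrees of freedom. The fit was tested on simulated data. Alternatives covered the gates, filters, doublets, scaling, DESeq2 1.42.0, the block, left-out libraries and the thinning depth, with 3 settings chosen after seeing the data.

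The members, gene lists and tests were chosen with earlier results of these data known. The genes named are the members, the genes of the lists with at least 10 CPM in 1 library of the mesenchyme or of the type described, and the 5 (*Tbx15*) or 3 (other members) genes of highest likeness, taken among genes with at least 200 UMIs over sums of at least 100000 UMIs. Some genes of the lists are not reported here.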

Additional observations from a re-analysis of the deposited data

How the results depend on the processing

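The log2 ratio of *Tbx15* in the mutant against the controls stayed negative under every alternative run, from -1.99 to -1.31 in the mesenchyme (the latter with gates read on thinned cells) and from -3.57 to -1.58 in perimysial cells. The perimysial ratio was -2.33 with 3 markers for mesenchyme, -1.64 with gates on thinned cells, -3.57 with cells holding both *Hic1* and *Ebf2* (18, 6 and 1 *Tbx15* UMIs) and -1.58 as a mean over cells. Without 1 control the ratio ran from -1.99 to -1.56 in the mesenchyme and from -2.06 to -1.74 in perimysial cells. The perimysial ratio of *Tbx18* was 0.13 with gates on thinned cells, where it rests on 4, 2 and 7 UMIs. Genes lower past the fold numbered 133 in the mesenchyme (197 to 214 without 1 control) and 345 in perimysial cells (504 to 554 without 1 control, 569 with 3 markers for mesenchyme, 745 with thinned gates, 930 with *Hic1* and *Ebf2*). Genes called without 1 library ran from 1772 to 5110 in the epithelial, 3272 to 5409 in the endothelial, 68 to 218 in the mural, 473 to 791 in the perimysial and 200 to 1145 in the midline contrast. With DESeq2 they were 2978, 3450, 97, 297 and 255 in that order. With gates on thinned cells they were 3304 in the endothelial, 129 in the mural, 125 in the perimysial and 196 in the midline contrast. With 3 markers for mesenchyme the perimysial contrast called 227, and with 2 markers for a lineage the myogenic contrast called 1751. With no replicate block, so that libraries were not paired within the contrast, edgeR called 1808 genes in the epithelial, 70 in the mural, 0 in the perimysial (661 at an unadjusted p under 0.05) and 2 in the midline contrast. The perimysial fold of *Tbx15* was 1.25 in that fit. Of the log2 folds of members 376 kept direction and side of the threshold, 28 lost the call, 6 gained it and 10 changed sign. The sign changes were, for mural cells (5 cells in control 2), *Tbx15* at 0.22 without control 1 (-2.45 to 0.22 without 1 library), *Tbx18* at -0.19 without control 1 (-0.19 to 0.50), *Tbx18* at -0.010 with no replicate block, and *Tbx1* at -7.74 with thinned gates, at -0.14 without cells holding mesenchymal markers and at -1.12 without the mutant (-1.12 to 0.98). The others were *Tbx18* in perimysial cells at -0.34 with thinned gates and at -0.20 without control 1 (-0.20 to 0.90), *Tbx18* in midline cells at -0.011 without the mutant (-0.011 to 0.64), and *Tbx1* in midline cells at -0.15 with ungated cells counted as mesenchyme, a setting chosen after seeing the data. For all of these the cause was not tested. No paired analysis of the genotypes was possible, because the labels match neither control to the mutant. The comparison of the mutant with the controls therefore has no block. Depth limits the values of *Tbx15* and *Tbx18* in mutant perimysial cells, which rest on 15 and 9 UMIs.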
